A study of Mus musculus with 2 samples.

Results

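The genes described here were 41 mouse genes of DNA damage signalling and repair, taken as a list by symbol from the 32285 genes of the count tables. All 41 had at least 1 UMI (unique molecular identifier, a tag that marks 1 captured RNA molecule) in each library. They were read in immune cells of mouse lymph nodes by droplet single-cell RNA sequencing, with 1 library labelled WT and 1 labelled CKO, an RPA1 conditional knockout. Both came from the C57BL/6 strain. The labels used here give neither the Cre driver nor the deleted exons, nor the age, the sex or the number of mice behind a library. With 1 library per genotype no difference could be tested, so each value below compares these libraries and not the genotypes. Intervals are exact 95% intervals, Poisson for a level, conditional binomial for a ratio and binomial for a share of cells, and cover counting error only. Members were compared in cells gated on raw UMIs. T cells had at least 2 UMIs of Cd3d, Cd3e and Cd3g together and 0 of Cd79a, B cells at least 2 of Cd79a and 0 of Cd3e. Cells of either gate with at least 2 UMIs of Mki67 and Top2a together were set apart as cycling.

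Replication protein A (RPA) is the complex of RPA1, RPA2 and RPA3 that binds single-stranded DNA wherever strands are parted for copying or repair. The RPA-coated strand recruits the checkpoint kinase ATR through its partner ATRIP. The clamp of RAD9A, RAD1 and HUS1, loaded by RAD17, and the activators TOPBP1 and ETAA1 then switch ATR on, and ATR phosphorylates CHK1 to hold back the cell cycle. Double-strand breaks are sensed by the complex of MRE11, RAD50 and NBN, which activates the kinase ATM, and are repaired by end joining or, in cells that have copied their DNA, by homologous recombination with BRCA1, BRCA2 and partners. Lymphocytes also make programmed breaks during receptor rearrangement and class switching.

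The WT library held 12769 barcodes and 84813609 UMIs, and the CKO library 13754 barcodes and 76200586 UMIs, of which 11169 and 11804 cells were kept. The median UMI count per kept cell was 5825 in WT and 4422 in CKO, and 56 barcodes were shared by the libraries, 45 of them among kept cells. Non-cycling T cells numbered 7502 in WT and 3433 in CKO, and non-cycling B cells 2701 and 7236. Rpa1, the targeted gene, stood at 39.4 CPM (UMIs of a gene in 1000000 UMIs of the class) in WT and 24.3 CPM in CKO T cells, CKO/WT 0.617 (0.559 to 0.681). In CD4 T cells the ratio was 0.514, in CD8 T cells 0.701, in regulatory T cells 0.631 and in T cells with a Trdc UMI 1.07. In B cells it was 0.896, in cycling T cells 0.873 and in cycling B cells 0.704. The 3′ tags may lie outside the deleted part of the gene, so these levels do not measure the deletion. The summed level of 6 further T cell markers was 3982 CPM in T and 233 CPM in B cells of WT, and 4105 and 239 CPM in CKO, and that of 6 B cell markers was 19056 and 18519 CPM in B cells. T cells of the libraries differed in make-up, with summed gamma delta T cell markers at 23.2 CPM in WT against 261 CPM in CKO.

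In lymphocytes outside the cell cycle most of these genes were expressed at low levels. Levels are UMIs at the 3′ end and are not divided by gene length, since each molecule is counted once. In WT T cells the median member stood at 13.5 CPM, the lowest, the exonuclease gene Exo1, at 0.281 CPM, and the highest, the break-sensing subunit gene Rad50, at 63.7 CPM. In WT B cells the median was 15.6 CPM, with Rad50 highest at 73.5 CPM and the Fanconi anaemia gene Fancd2 lowest at 0.329 CPM. Below 5 CPM lay 14 members in WT T cells and 9 in WT B cells, among them in T cells Chek1, Brca1, Brca2, Bard1, Exo1 and all 3 Fanconi anaemia genes.

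Within each library some members were much higher in cycling than in non-cycling T cells and others were level. A member counted as measured in a comparison where its mean over both groups reached 5 CPM and its UMIs reached 20. Of 36 measured members in WT, 16 were at least 1.5-fold higher in cycling T cells, against 17.3% of all measured genes, and 1, Rad52, was at least 1.5-fold lower, against 5.83%. In that library 9 of the 36 reached 5 CPM only through the cycling cells, and such genes are bound to lie higher there. Among the 27 members at 5 CPM or more in both groups, 8 were at least 1.5-fold higher, against 13.9% of genes held to the same floor, 1 was lower, and their median log2 ratio was 0.01. In CKO 21 of 38 measured members were at least 1.5-fold higher, against 22.8% of genes, and 2 were lower, against 15.7%. Of the higher ones, 10 reached the floor only through the cycling cells. Among the 28 members at the floor in both groups of CKO, 11 were higher, against 19.2% of genes, 2 were lower, and the median log2 ratio was 0.50. Of 35 members measured in both libraries, 15 were at least 1.5-fold higher in both. These include the 8 that were higher in WT and reached the floor there only through the cycling cells. The share of all genes higher in both is not given, so the count is no measure of agreement.

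The genes low outside the cycle and high inside it included Chek1 and much of homologous recombination. Exo1, which resects DNA ends, went from 0.281 CPM in non-cycling to 16.3 CPM in cycling WT T cells, a 58.0-fold difference (31.3 to 114), and from 0.384 to 36.5 CPM in CKO. Chek1, which encodes the kinase CHK1 (chr9:36708482-36727065 on GRCm38), went from 0.983 to 24.8 CPM in WT, a ratio of 25.2 (17.3 to 37.1), and from 2.83 to 60.6 CPM in CKO, a ratio of 21.4 (15.2 to 30.3). Brca1, a ubiquitin ligase subunit that steers breaks to recombination (chr11:101488764-101551955), went from 1.44 to 25.1 CPM in WT and from 1.73 to 47.5 CPM in CKO. Its partner gene Bard1 went from 2.37 to 28.3 CPM in WT and was 18.2-fold higher in cycling cells of CKO. Brca2, a tumour suppressor gene of recombination, was 6.85-fold higher in WT and 11.4-fold in CKO. H2afx, the histone variant phosphorylated around breaks, was the highest member in cycling cells, at 175 CPM against 28.7 CPM outside the cycle in WT. All of these were higher in the cycling cells of both libraries. In WT Exo1, Chek1, Brca1, Bard1 and Brca2 reached 5 CPM only through the cycling cells, so their direction there was set by the floor. The same held in CKO for Exo1, Chek1, Brca1 and Bard1, so the shared direction of the libraries is no support for these genes.

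Among members well expressed outside the cycle, Topbp1 (chr9:103305215-103350428), Rbbp8, whose product CtIP starts end resection, and the mismatch recognition gene Msh6 were also higher in cycling cells. Topbp1 went from 46.3 to 113 CPM in WT, a ratio of 2.43 (2.16 to 2.74), and Rbbp8 from 16.0 to 57.4 CPM, a ratio of 3.59 (3.01 to 4.26). The kinase genes themselves were near level. Atr stood at 30.6 CPM in non-cycling and 29.1 CPM in cycling WT T cells, Atm at 63.4 and 62.7 CPM, and Prkdc, the end-joining kinase, at 33.5 and 33.7 CPM. Rad52, which binds RPA and anneals single strands, stood at 10.3 CPM outside and 6.73 CPM inside the cycle in WT, and its ratio of 0.655 (0.391 to 1.03) was 0.577 in CKO.

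**Figure D1:**
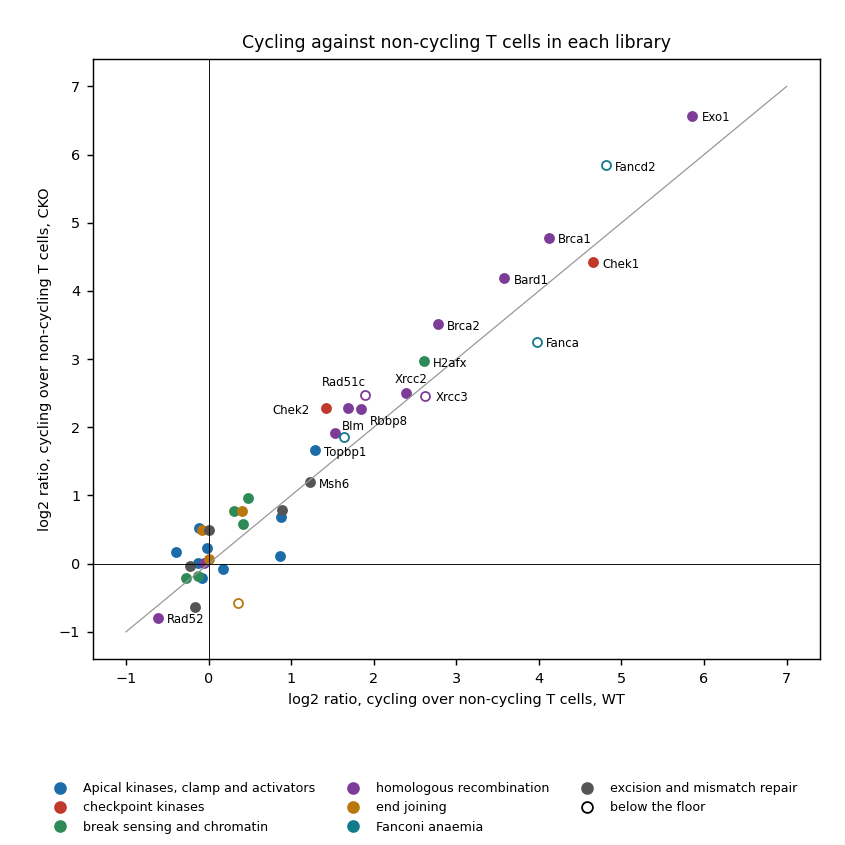
Log2 ratio of each member's level in cycling over non-cycling T cells, in the WT library on the x axis and the CKO library on the y axis, coloured by role; open points fell below the floor in a library, and the grey line marks equal ratios. Exo1, Chek1, Brca1 and Bard1 lie far up the diagonal, while Atr, Atm and Prkdc sit near 0.

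Promoters were examined because these members were high together in cycling cells, and genes of this kind are classical targets of the E2F factors. RefSeq windows of 250 bases before and 50 after a gene's start (build GRCm38.p6) were held for 31 of the 41 members. The E2F-type motif searched on both strands was TTT, then a pair of bases each C or G, then CGC. It was found for 8 of the 31 members (25.8%) and for 704 of 27025 genes with a window (2.60%). The 250 bases upstream of the start are shown for 4 holders of the motif that were at least 1.5-fold higher in cycling WT T cells, on the gene's strand, with the match in capitals. Of these, Bard1, Brca2 and Chek2 reached 5 CPM only through the cycling cells, so they were bound to lie higher there.
Topbp1, chr9:103305077-103305326, plus strand: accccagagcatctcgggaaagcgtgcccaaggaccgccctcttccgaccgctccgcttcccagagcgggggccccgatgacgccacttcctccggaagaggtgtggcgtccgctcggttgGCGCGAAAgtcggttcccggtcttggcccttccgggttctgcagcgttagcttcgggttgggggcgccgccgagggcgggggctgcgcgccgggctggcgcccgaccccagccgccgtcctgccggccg
Bard1, chr1:71102973-71103222, minus strand: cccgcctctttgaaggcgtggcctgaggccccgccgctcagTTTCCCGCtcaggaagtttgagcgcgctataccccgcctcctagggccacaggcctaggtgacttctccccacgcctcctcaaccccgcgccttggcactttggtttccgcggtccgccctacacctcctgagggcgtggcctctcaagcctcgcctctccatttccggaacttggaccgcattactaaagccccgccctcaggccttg
Brca2, chr5:150522371-150522620, plus strand: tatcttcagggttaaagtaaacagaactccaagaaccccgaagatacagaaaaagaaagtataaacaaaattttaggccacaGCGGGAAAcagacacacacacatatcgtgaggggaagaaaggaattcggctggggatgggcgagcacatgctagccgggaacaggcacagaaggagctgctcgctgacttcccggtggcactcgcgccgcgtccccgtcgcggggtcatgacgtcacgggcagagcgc
Chek2, chr5:110839733-110839982, plus strand: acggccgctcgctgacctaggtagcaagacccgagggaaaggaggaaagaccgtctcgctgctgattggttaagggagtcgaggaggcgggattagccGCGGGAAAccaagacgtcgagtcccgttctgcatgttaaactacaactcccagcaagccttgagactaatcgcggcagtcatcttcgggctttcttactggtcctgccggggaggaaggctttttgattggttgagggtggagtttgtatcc
The match began 129 bases before the RefSeq start in Topbp1, 209 in Bard1, 168 in Brca2 and 152 in Chek2. Gene positions elsewhere in this text are from GENCODE, whose starts differ. In Topbp1, Bard1 and Chek2 the RefSeq start lies inside the GENCODE span, so part of the bases shown overlaps that span. Chek1 and Brca1, which differed more with the cycle than Topbp1, had no match in their windows. Among the holders not shown, Mdc1 stood at 26.7 CPM in non-cycling and 24.4 CPM in cycling WT T cells, and Xrcc6 at 19.4 and 18.4 CPM. Msh6, higher in cycling cells, and Rad51c, below the floor, were the remaining holders. A match describes these letters and is not a site or a cause.

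In non-cycling T cells the measured repair genes were nearly level between the libraries. Of 41 members 27 were measured, and 0 of them were at least 1.5-fold apart, against 3.28% of all 8621 measured genes. The members' median log2 ratio of CKO over WT was 0.02, with 14 above 0 and 13 below, and that of all measured genes 0.07. Of the 27, 26 had ratios between 0.840 and 1.18, and 15 lay within 1.1-fold. Summed over all 41 members, the level was 702 CPM in WT against 727 CPM in CKO, CKO/WT 1.03 (1.01 to 1.06). The 14 members not measured were summed apart, and their CKO/WT ratio was 1.18 (1.07 to 1.29).

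The apical kinases, the clamp and the activators, 8 genes of the ATR branch and Atm, were all measured, and these 9 had ratios between 0.969 and 1.18. Atr stood at 30.6 CPM in WT against 30.2 CPM in CKO, CKO/WT 0.988 (0.899 to 1.08). Its partner gene Atrip had 17.7 CPM in WT and 17.2 in CKO, CKO/WT 0.972 (0.857 to 1.1). Both activator genes were slightly higher in the CKO library. Etaa1, which binds RPA directly, had 21.8 CPM in WT and 25.8 in CKO, CKO/WT 1.18 (1.07 to 1.31), and Topbp1 had 46.3 CPM in WT and 51.5 in CKO, CKO/WT 1.11 (1.03 to 1.20). Atm stood at 63.4 and 64.2 CPM. The clamp and loader genes Rad9a, Rad1, Hus1 and Rad17 had ratios between 0.969 and 1.08.

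Of the 6 genes of break sensing and chromatin, 5 had a log2 ratio above 0 and 1 below. All measured genes in these cells had a median log2 ratio of 0.0709, with quartiles of -0.0292 and 0.167. Most genes thus lay above 0, and the highest of the 6, at 0.166, was inside these quartiles. The signs are therefore no trend of this role. Mre11a, the nuclease of the sensor complex, stood at 22.6 CPM in WT against 25.3 CPM in CKO, CKO/WT 1.12 (1.01 to 1.24). The scaffold gene Mdc1 had a ratio of 1.11 (1.01 to 1.23), and Trp53bp1, whose product protects breaks from resection, one of 1.04 (0.922 to 1.17). H2afx was the 1 gene of the 6 with a log2 ratio below 0. It had 28.7 CPM in WT and 25.4 in CKO, CKO/WT 0.884 (0.798 to 0.977). In recombination 4 of 12 genes were measured. Among these Rbbp8 had a ratio of 1.12 and Wrn, a helicase gene, one of 1.11 (1.03 to 1.20). Blm, another helicase gene whose product binds RPA, stood at 0.923 (0.781 to 1.09) and Rad52 at 0.931 (0.786 to 1.1). Of the end-joining genes, Xrcc5, a Ku subunit gene, had a ratio of 0.915 and Prkdc one of 0.961.

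The widest ratios in T cells were those of excision and mismatch repair, in opposite directions. Msh6 (chr17:87975062-87990892) had the highest, at 18.0 CPM in WT against 23.8 CPM in CKO, CKO/WT 1.32 (1.18 to 1.48). Ercc1, part of the nuclease that cuts beside a lesion, had the lowest, with 13.4 CPM in WT and 11.2 in CKO, CKO/WT 0.840 (0.721 to 0.977). Xpa, which verifies the lesion and binds RPA, had 41.4 CPM in WT and 35.1 in CKO, CKO/WT 0.849 (0.779 to 0.924). The scaffold gene Xrcc1 of single-strand break repair had a ratio of 0.949 (0.801 to 1.12), and Ercc4, the nuclease partner of ERCC1, one of 0.967 (0.845 to 1.11). Msh6 was thus the only measured member above 1.18 in these cells, and it stayed inside 1.5-fold.

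Chek1 lay below the floor in non-cycling T cells but had the highest ratio of all 41 members. It had 49 UMIs in WT and 59 in CKO, from 42 and 46 cells, which gave 0.983 and 2.83 CPM, CKO/WT 2.88 (1.94 to 4.30). Over cells with 0 UMIs of both Mki67 and Top2a the ratio was 2.87 (1.85 to 4.47). The cells holding Chek1 also held more S phase RNA. A list of 20 S phase genes summed to 1220 CPM in the WT cells with Chek1 and 348 CPM in those without, and to 1653 and 387 CPM in CKO. Over all non-cycling T cells this list summed to 356 CPM in WT and 413 CPM in CKO, CKO/WT 1.16 (1.13 to 1.19). Other members below the floor included Fanca, at 0.562 and 1.15 CPM, and Fanci, at 2.27 and 3.41 CPM. Brca1 had 1.44 CPM in WT and 1.73 in CKO, CKO/WT 1.20 (0.779 to 1.81). The recombination genes Rad51c, Xrcc2 and Xrcc3 stood at 0.762, 1.83 and 0.461 CPM in WT, and Palb2, the bridge between BRCA1 and BRCA2, at 3.81 CPM with a ratio of 1.01 (0.767 to 1.32). Lig4, the ligase gene of end joining, and Fancd2 were also below the floor, at 4.71 and 0.341 CPM in WT. The part of cells near the cycling gate in these values was not tested.

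**Figure D2:**
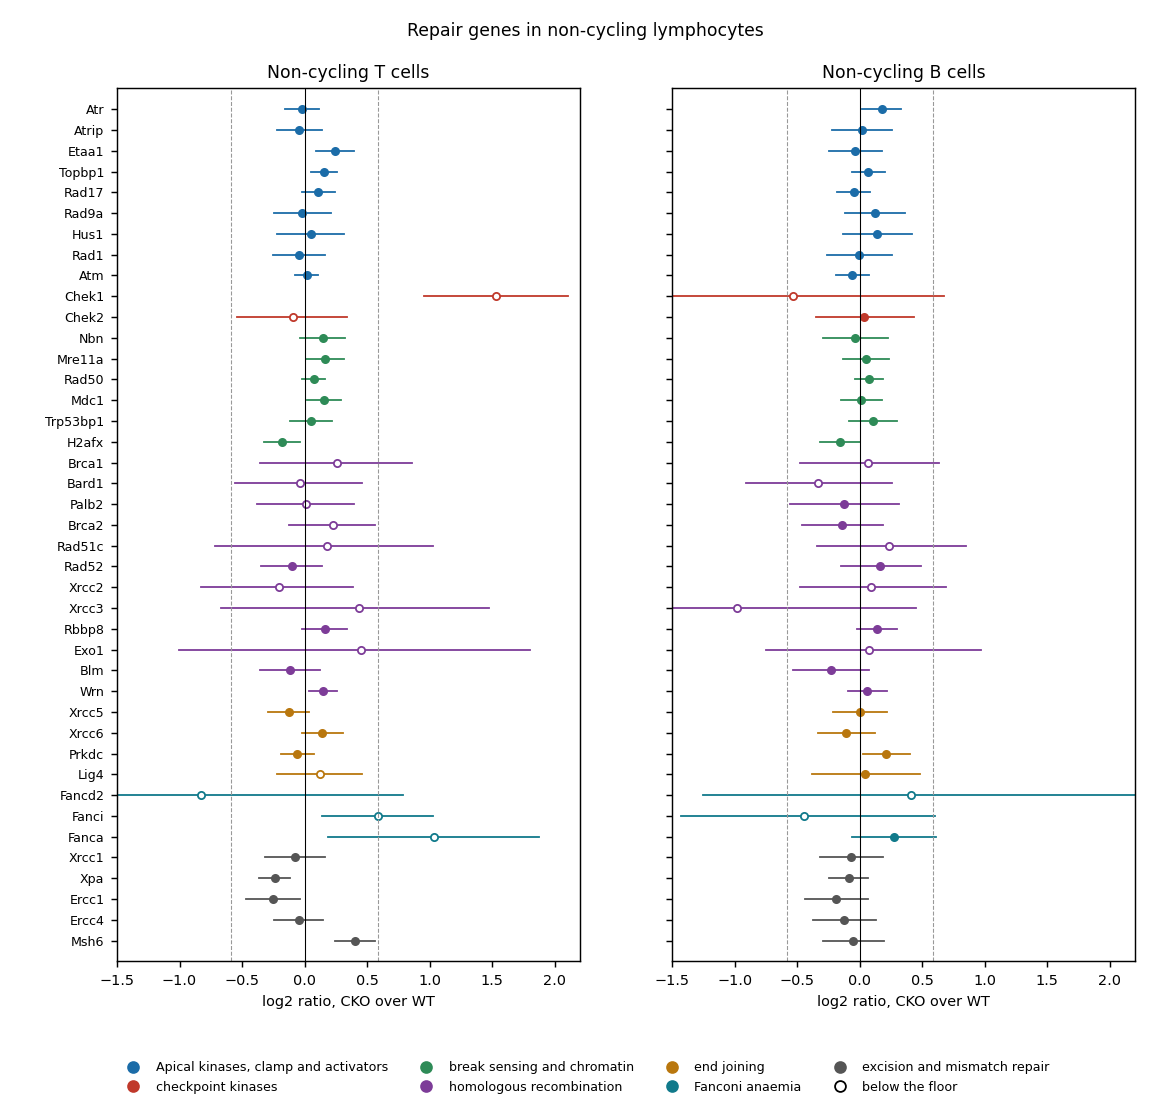
Log2 ratio of CKO over WT for each member in non-cycling T cells (left) and B cells (right), with exact intervals cut at the axis ends, coloured by role; open points fell below the floor and dashed lines mark 1.5-fold. All filled points lie between the dashed lines in both panels, and Chek1 in T cells is the open point farthest to the right.

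T cells were split by UMIs of Cd4, Cd8b1, Foxp3 (regulatory) and Trdc, the delta receptor chain. In the large subsets few members were past the fold. In CD4 T cells (2735 WT and 1326 CKO cells) 0 of 28 measured members were at least 1.5-fold apart, against 3.60% of genes. In CD8 T cells (2701 and 433 cells) 1 of 28 was, against 6.84%. It was Brca2, at 4.22 CPM in WT against 6.89 CPM in CKO, from 85 and 20 UMIs, with an interval of the ratio from 0.95 to 2.68. Brca2 reached the floor only through the CKO library, and 0 of the 27 members at the floor in both were past the fold. In the T cells outside these subsets 0 of 29 were, against 4.50%. The members' median log2 ratio in CD8 T cells, 0.11, was close to that of all genes there, also 0.11. Msh6 was higher in CKO in CD4 T cells, with a ratio of 1.28 (1.07 to 1.52), and in CD8 T cells, with a ratio of 1.41 (1.06 to 1.86), and near level in regulatory T cells at 1.01. Chek1 stood at 0.762 and 2.55 CPM in CD4 T cells and at 1.04 and 4.48 CPM in CD8 T cells. The 13 members not measured in CD8 T cells had a summed CKO/WT ratio of 1.585 (1.255 to 1.985).

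The smaller subsets were noisier. In regulatory T cells (199 and 195 cells) 5 of 25 measured members were at least 1.5-fold apart, 1 higher and 4 lower, against 19.2% of genes. Rad52 was the lowest, at 23.7 CPM from 30 UMIs in WT and 6.67 CPM from 7 UMIs in CKO, CKO/WT 0.282 (0.104 to 0.654). The Ku subunit genes Xrcc6 and Xrcc5 had ratios of 0.483 (0.225 to 0.971) and 0.665 (0.399 to 1.08) there. The clamp genes went opposite ways, Rad9a with 9.48 CPM in WT and 15.3 in CKO, CKO/WT 1.61 (0.714 to 3.73), and Rad1 with 14.2 and 8.58 CPM, CKO/WT 0.603 (0.239 to 1.41). In T cells with a Trdc UMI (150 and 486 cells) 4 of 28 were, against 18.4% of genes. Msh6 had 4 UMIs in WT and 56 in CKO, CKO/WT 3.98 (1.47 to 15.1), and passed the floor only through CKO. Nbn had 7 and 58 UMIs, CKO/WT 2.35 (1.07 to 6.11). Rad1 had 5.25 CPM in WT and 11.9 in CKO, CKO/WT 2.27 (0.897 to 7.38), and Xrcc6 32.5 and 20.3 CPM, CKO/WT 0.623 (0.402 to 0.986). The shares of members apart were near those of all genes in both subsets.

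**Figure D3:**
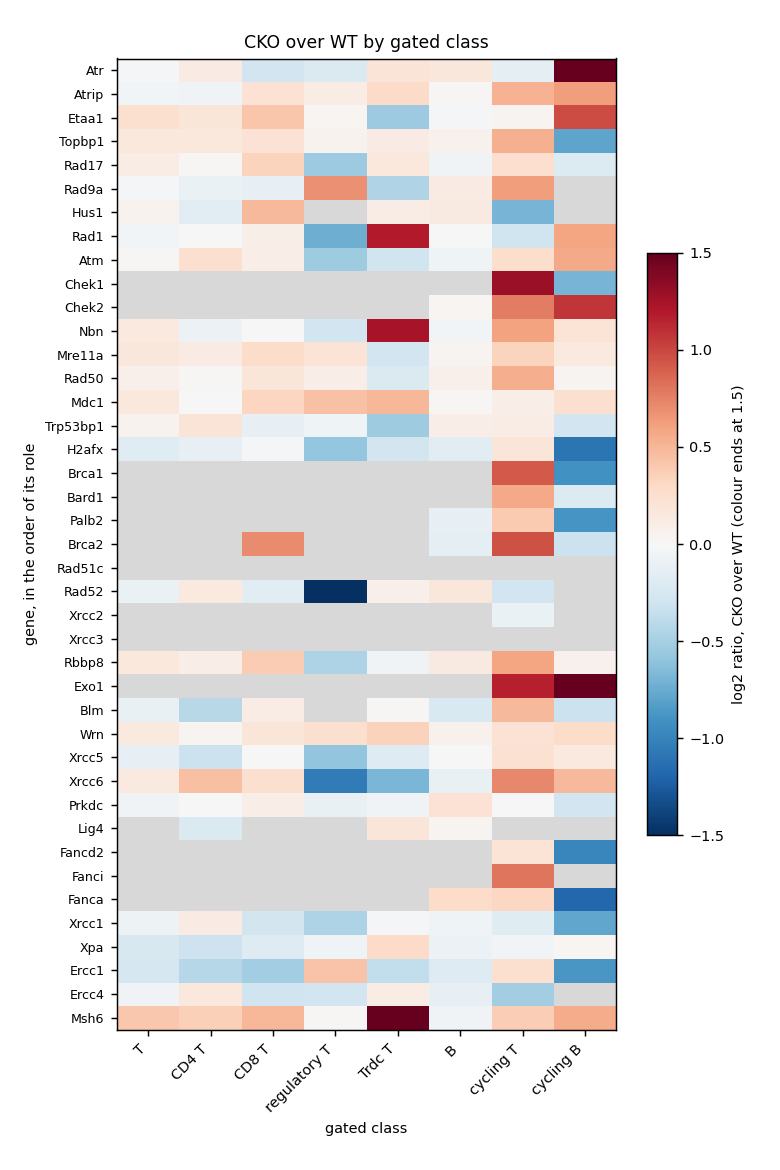
Log2 ratio of CKO over WT for each member (rows, by role) in each gated class (columns), with red higher and blue lower in CKO and grey where a member fell below the floor. Columns T, CD4 T, CD8 T and B are mostly pale, while regulatory, Trdc and cycling columns, which hold fewer UMIs, carry the darker cells.

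Repair genes were also nearly level in non-cycling B cells. Of 32 measured members 0 were at least 1.5-fold apart, against 1.32% of all 8685 measured genes, and all 32 had ratios between 0.851 and 1.21. The members' median log2 ratio was 0.01, and that of all genes 0.03. The summed level of all members was 799 CPM in WT against 808 CPM in CKO, CKO/WT 1.01 (0.988 to 1.03). Atr had 36.9 CPM in WT and 41.6 in CKO, CKO/WT 1.13 (1.01 to 1.26), and Prkdc had 25.6 CPM in WT and 29.7 in CKO, CKO/WT 1.16 (1.02 to 1.32). The highest ratio was that of Fanca, a subunit gene of the Fanconi core complex that acts on DNA crosslinks, at 1.21 (0.960 to 1.53). The lowest was that of Blm at 0.851 (0.690 to 1.05), and H2afx stood at 0.894 (0.8 to 1). All 5 excision and mismatch genes had log2 ratios below 0 in B cells, with a median of -0.0890. All measured genes there had quartiles of -0.0612 and 0.113, and their share below 0 is not given. The lowest of the 5 was Ercc1, with a ratio of 0.877 (0.738 to 1.04). Msh6, high in CKO T cells, stood at 0.963 (0.814 to 1.14). Etaa1, Atrip, Topbp1, Atm, Wrn and Xpa all had ratios between 0.940 and 1.05. Trp53bp1 had a ratio of 1.07 and Rad52 one of 1.12. Hus1 had 12.3 CPM in WT and 13.5 in CKO, CKO/WT 1.1 (0.909 to 1.33). Brca2 had 9.39 and 8.52 CPM, CKO/WT 0.908 (0.727 to 1.14), and Palb2, at 5 CPM or more in WT alone, 5.27 and 4.82 CPM, CKO/WT 0.916, with an interval that held 1.

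Several members differed more between B and T cells than between the libraries. Of 28 members measured in WT, 4 were at least 1.5-fold higher in B cells and 0 lower, against 31.5% of genes in either direction, and in CKO 5 of 30 were higher and 1 lower, against 31.0%. Rbbp8 stood at 16.0 CPM in T and 36.3 CPM in B cells of WT, a ratio of 2.27 (2.02 to 2.56), and at 17.9 and 39.9 CPM in CKO, a ratio of 2.23. Hus1 and Brca2 were also at least 1.5-fold higher in B cells of both libraries, but Brca2 reached 5 CPM in WT only through B cells. Fanca was not measured in the WT comparison and passed in CKO only through B cells, so its values are a description. It stood at 0.562 CPM in T and 8.15 CPM in B cells of WT, a ratio of 14.5 (9.46 to 22.9), and its ratio was 8.53 (5.63 to 13.5) in CKO.

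In cycling T cells a set of checkpoint and recombination genes lay higher in CKO. These were 212 cells with 2823193 UMIs in WT and 98 cells with 1451245 UMIs in CKO. Of 38 measured members, all at 5 CPM or more in both libraries, 10 were at least 1.5-fold higher, against 11.1% of genes, and 1 was lower, against 9.30%. The members' median log2 ratio was 0.29 and that of all 9007 genes 0.05, and 30 of the 38 lay above 0. The quartiles of all genes were -0.233 and 0.316, and their share above 0 is not given. Summed over all members, the level was 1218 CPM in WT against 1585 CPM in CKO, CKO/WT 1.30 (1.23 to 1.37).

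The highest members belonged to checkpoint signalling and recombination. Chek1 stood at 24.8 CPM in WT against 60.6 CPM in CKO, CKO/WT 2.45 (1.77 to 3.40). Its UMIs came from 40 of 212 cells in WT and 44 of 98 cells in CKO, with at most 4 and 5 in 1 cell, so no single cell set the level. In non-cycling T cells of WT, 42 of 7502 cells held a Chek1 UMI. The median UMI count per cell was 6272 over all non-cycling WT T cells, 10034 in those 42 cells, 10798 in cycling WT T cells and 12224 in cycling CKO T cells. Exo1 had 16.3 CPM in WT and 36.5 in CKO, CKO/WT 2.24 (1.48 to 3.40). Brca2 (chr5:150522630-150570329) had 30.1 CPM in WT and 58.6 in CKO, CKO/WT 1.95 (1.42 to 2.66), and Brca1 had 25.1 CPM in WT and 47.5 in CKO, CKO/WT 1.89 (1.34 to 2.67). For these 4 genes the lower bound lay above 1.3.

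The others past 1.5-fold were less precise. Rbbp8 stood at 57.4 CPM in WT against 86.1 CPM in CKO, CKO/WT 1.5 (1.18 to 1.91). Xrcc6 had 18.4 CPM in WT and 30.3 in CKO, CKO/WT 1.65 (1.08 to 2.51), and Nbn had 20.9 CPM in WT and 31.7 in CKO, CKO/WT 1.52 (1.01 to 2.27). Fanci, whose product is mono-ubiquitinated at crosslinks, had a ratio of 1.75 (0.873 to 3.49), Chek2, the kinase gene downstream of ATM, one of 1.70 (0.901 to 3.19), and Rad9a one of 1.54 (0.853 to 2.76). These 3 intervals held 1. Hus1, which encodes a further clamp subunit, was the one lower, at 14.5 CPM from 41 UMIs and 8.96 CPM from 13 UMIs, CKO/WT 0.617 (0.303 to 1.17).

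Several abundant members lay just inside 1.5-fold. Topbp1 stood at 113 CPM in WT against 163 CPM in CKO, CKO/WT 1.45 (1.22 to 1.72), and Rad50 had 88.9 CPM in WT and 130.2 in CKO, CKO/WT 1.46 (1.21 to 1.78). H2afx had 175 CPM in WT and 199 in CKO, CKO/WT 1.13 (0.975 to 1.31). The apical kinase genes were near level, as Atr had 29.1 CPM in WT and 26.2 in CKO, CKO/WT 0.901 (0.597 to 1.34), Prkdc at 1 (0.696 to 1.43) and Atm at 1.20 (0.935 to 1.53). Of the RPA-binding members, Etaa1 had a ratio of 1.03, Wrn 1.16, Blm 1.40, Xpa 0.973 and Rad52 0.819. Below the floor in these cells lay Rad51c, Xrcc3 and Lig4. The excision genes Ercc4, Xrcc1 and Ercc1 had ratios of 0.698 (0.350 to 1.31), 0.881 (0.520 to 1.45) and 1.18 (0.670 to 2.03). Rpa2, another RPA subunit gene, had 49.9 CPM in WT and 91.0 in CKO, CKO/WT 1.82 (1.43 to 2.33).

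**Figure D4:**
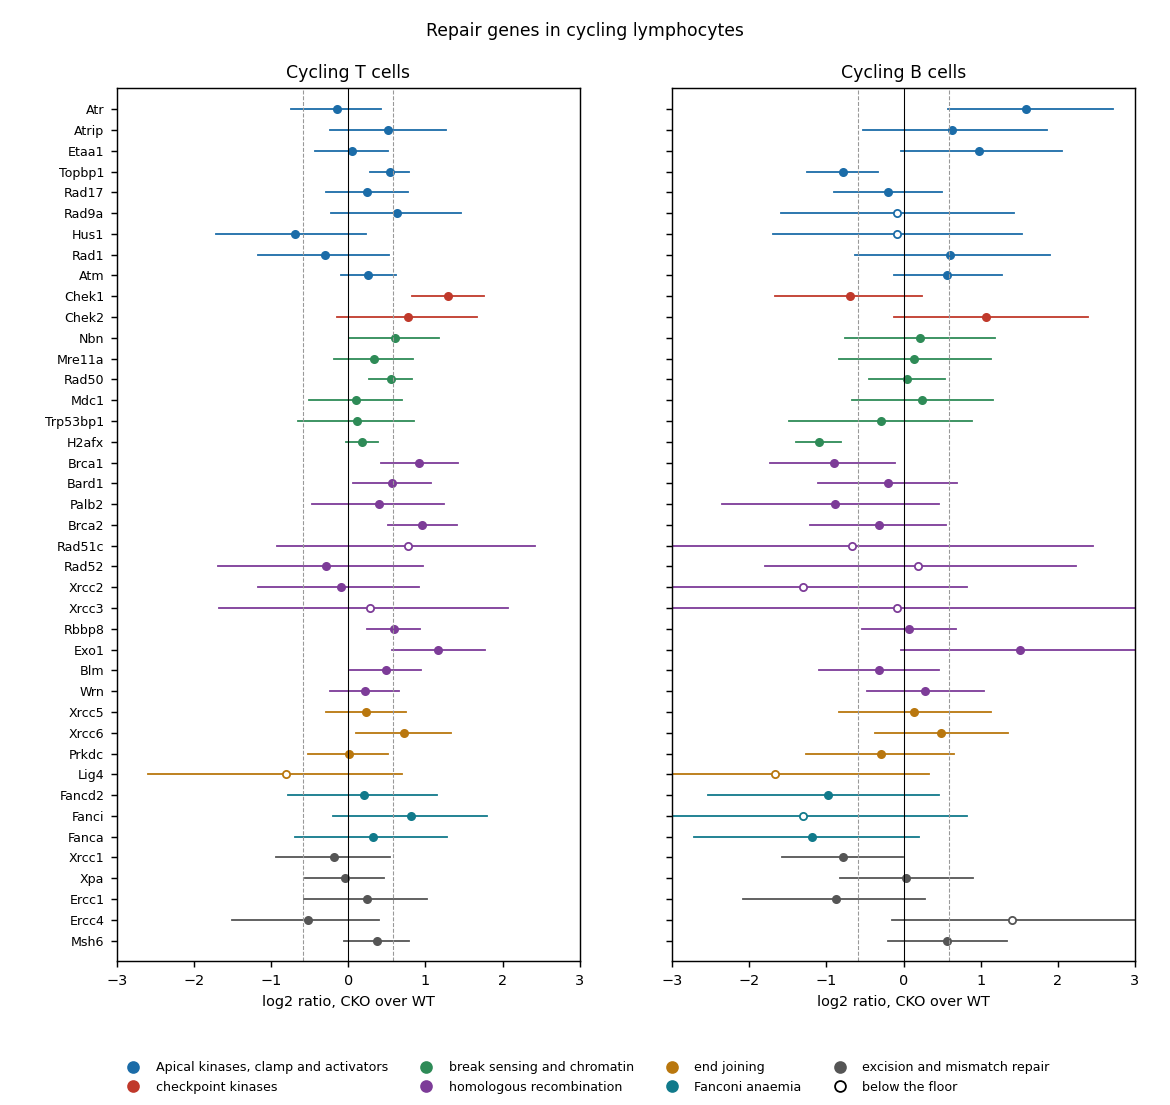
Log2 ratio of CKO over WT for each member in cycling T cells (left) and cycling B cells (right), with exact intervals cut at the axis ends, coloured by role; open points fell below the floor and dashed lines mark 1.5-fold. In T cells Chek1, Exo1, Brca2 and Brca1 lie past the right dashed line with their intervals above 0, and in B cells H2afx, Topbp1 and Brca1 lie past the left one.

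Cell cycle phase and cell make-up differed between the cycling T cells of the libraries along with these values. The 20 S phase genes summed to 2104 CPM in WT against 3418 CPM in CKO, CKO/WT 1.62 (1.56 to 1.69). Of them 18 of 20 were at least 1.5-fold higher, against 11.1% of all genes. A list of 20 G2 and mitosis genes summed to 1850 and 2064 CPM, CKO/WT 1.12, with 2 of 20 at least 1.5-fold higher, against the same 11.1%. More S phase than G2 and mitosis UMIs were found in 68.4% of the WT and 77.6% of the CKO cells, and a Trdc UMI in 6 of 212 and 31 of 98. Among the cells with more S phase UMIs Chek1 stood at 31.1 CPM in WT against 75.5 CPM in CKO. All members together stood at 1139 and 1650 CPM there. The S phase genes still summed to 2346 and 3929 CPM there, so the split did not match the libraries for S phase RNA. Among the others, 67 WT and 22 CKO cells, the members summed to 1407 and 1380 CPM. In those cells Chek1 stood at 9.64 CPM in WT and at 14.2 CPM in CKO, Brca2 at 22.9 and 36.9 CPM and Brca1 at 21.7 and 14.2 CPM. Among cycling cells without a Trdc UMI the members summed to 1215 and 1652 CPM, and the S phase genes to 2126 and 3756 CPM. The difference between the kinds of cycling cells was not tested. Whether genotype or phase make-up sets the levels cannot be told apart with 1 library each.

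Further repair genes, 104 that are not members, were read alongside. In non-cycling T cells 0 of 81 measured were at least 1.5-fold apart, against 3.28% of all genes, and in B cells 0 of 79, against 1.32%. Shld1, of the complex that protects break ends, had the lowest ratio named in T cells, 0.675 (0.597 to 0.761), and Samhd1, which degrades nucleotides, one of 1.38 (1.35 to 1.42). In cycling T cells 26 of 98 were at least 1.5-fold higher, against 11.1% of all genes, and 5 lower, against 9.30%. In cycling B cells 6 of 82 were higher, against 19.4% of all genes, and 23 lower, against 13.0%. In cycling T cells Rad54b had 10.3 CPM in WT and 31.7 in CKO, CKO/WT 3.09 (1.90 to 5.09). Brip1, a helicase partner gene of BRCA1, had 34.0 CPM in WT and 71.0 in CKO there, CKO/WT 2.09 (1.56 to 2.79).

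Among 29 listed targets of p53, the factor that ATM and CHK2 stabilise after damage, 10 of 23 measured were at least 1.5-fold higher in cycling T cells, against 11.1% of all genes, and 2 lower, against 9.30%. In cycling B cells 3 of 15 were higher, against 19.4% of all genes, and 3 lower, against 13.0%. In cycling T cells Cdkn1a, the cell cycle inhibitor p21, stood at 3.19 CPM from 9 UMIs in WT and 60.6 CPM from 88 UMIs in CKO. Those 88 UMIs lay in 8 of 98 cells, with up to 25 in 1 cell. Phlda3, another listed target, had 2.48 CPM in WT and 41.3 in CKO, also from 8 of 98 CKO cells. Cdkn1a and Phlda3 are counted among the 10, but they passed the floor only through CKO and so were bound to lie higher there. Mdm2, the ubiquitin ligase gene that limits p53, was spread over more cells, 71 of 212 and 47 of 98, with 37.6 CPM in WT and 67.5 in CKO, CKO/WT 1.80 (1.35 to 2.39). In non-cycling T cells Mdm2 stood at 37.8 and 40.0 CPM, and Cdkn1a below the floor at 0.722 and 2.11 CPM.

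Cycling B cells, 53 in WT and 83 in CKO, went in both directions. Of 32 measured members 6 were at least 1.5-fold higher, against 19.4% of all genes, and 9 lower, against 13.0%. In either direction the share of all genes was 32.4%. H2afx stood at 363 CPM in WT against 169 CPM in CKO, CKO/WT 0.466 (0.380 to 0.570), Topbp1 had 129 CPM in WT and 74.7 in CKO, CKO/WT 0.580 (0.419 to 0.797), and Brca1 had 47.4 CPM in WT and 25.3 in CKO, CKO/WT 0.533 (0.301 to 0.922). Atr was the highest, at 13.4 CPM from 11 UMIs and 40.3 CPM from 35 UMIs, CKO/WT 3.01 (1.49 to 6.57). Chek1 had 31.6 CPM in WT and 19.6 in CKO, CKO/WT 0.618 (0.315 to 1.18), the opposite direction to cycling T cells. The other higher members were Exo1 at 2.84 (0.980 to 9.97), Chek2 at 2.10 (0.914 to 5.24), Etaa1 at 1.96 (0.979 to 4.14), Atrip at 1.55 (0.692 to 3.62) and Rad1 at 1.51 (0.645 to 3.73). Their intervals all held 1. The other lower members were Fanca at 0.441 (0.152 to 1.15), Fancd2 at 0.509 (0.172 to 1.37), Palb2 at 0.540 (0.196 to 1.38), Ercc1 at 0.547 (0.235 to 1.21) and Xrcc1 at 0.582 (0.335 to 0.992). These cells differed in kind as well, since 4 plasma cell markers summed to 9775 CPM in WT against 6350 CPM in CKO and the 6 B cell markers to 8919 and 17066 CPM. The S phase genes summed to 2526 and 1746 CPM and the G2 and mitosis genes to 2304 and 1370 CPM, both lower in CKO. Their part in the members' ratios was not tested.

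The share of cycling cells among gated T cells was 2.75% (2.40 to 3.14) in WT and 2.78% (2.26 to 3.37) in CKO. After each cell was thinned to 2000 UMIs, which left out 125 WT and 226 CKO cells as shallower, it was 0.723% (0.542 to 0.944) and 1.17% (0.839 to 1.59). Among B cells the share was 1.92% (1.44 to 2.51) in WT and 1.13% (0.904 to 1.40) in CKO, and 0.750% (0.459 to 1.15) and 0.241% (0.140 to 0.385) after thinning. These intervals treat the cells of 1 library as independent, so their overlap or lack of it does not compare the genotypes. The gate also depends on depth. The median UMI count per cell was 4019 in WT and 3864.5 in CKO for non-cycling B cells. For cycling B cells it was 14278 and 7148. In the thinned data a non-cycling T cell held 1.41 member UMIs in WT and 1.49 in CKO on average, and a cycling T cell 3.13 and 4.15. The gates were applied again to the thinned counts, which left 53 WT and 40 CKO cycling T cells. These are thus not the same set as the 212 and 98 cells gated on raw UMIs.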

How the data were processed

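UMI counts per gene and barcode were deposited by the authors unnormalized, and per the labels' protocols the libraries were made with the Chromium 3′ kit, version 3.1. Per the file headers Cell Ranger was at 6.0.2. The submitters' processing notes give mm10, Seurat 4.0.3 and, for Cell Ranger, 5.0.0, so the version behind the counts is uncertain. Groups came from the genotype labels. Kept cells had at least 500 UMIs and 200 genes and no more than 10% of UMIs from mitochondrial genes. The highest Scrublet scores (Scanpy 1.11.5) were left out at 0.8% per 1000 barcodes, 1304 WT and 1513 CKO cells. T subsets were set by Trdc, Foxp3, Cd8b1 and Cd4 UMIs. UMIs were summed per class and divided by the class total (CPM), and ratios were taken for genes with a mean of at least 5 CPM and at least 20 UMIs; at least 1.5-fold counted as apart. Scripts (Python 3.11.15, SciPy 1.17.1) were tested on simulated data. No p-value was computed. The members, the gene lists and the comparisons were chosen with earlier results of these data known. Ratios were given, singly or as a range, for members at least 1.5-fold apart, for the 5 highest and 5 lowest ratios in T and in B cells and for a set list of members of the ATR branch, RPA-binding members, H2afx, Trp53bp1, Atm and Brca1. Some ratios fell outside this rule, among them Prkdc, Xrcc1 and Ercc4 in T cells and Rad50 and Ercc1 in cycling T cells. Genes below the floor and the further genes of the RPA and promoter comparisons were named after their values were seen. Gene positions came from GENCODE M21 on GRCm38, where 32235 of 32285 identifiers (99.8%) were found. Alternatives changed the mitochondrial limit, doublets, the total, the centring, the floor, the fold, the gates, the depth and the cells of the cycling class. UMIs from 1 library share its amplification and capture, so intervals leave out variation between mice.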

Additional observations from a re-analysis of the deposited data

Results flagged for a closer look

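Chek1 and Brca1 stood out because they were at least 1.5-fold higher in CKO in cycling T cells and at least 1.5-fold lower in cycling B cells. Opposite signs alone were not particular to them, as Topbp1 and Atr also had them. The share of all genes that meet this rule is not given. The log2 ratio of Chek1 was 1.29 in cycling T cells and -0.69 in cycling B cells, and that of Brca1 was 0.92 and -0.91. In cycling B cells Chek1 rested on 26 UMIs in WT and 17 in CKO, and the interval of its ratio held 1. The difference between the classes was not tested, since each genotype had 1 library. Cycling B cells of the libraries also differed in plasma cell and B cell markers, and the S phase list was higher in CKO in cycling T cells and lower in cycling B cells. Their part in the opposite signs was not tested.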

How the results depend on the processing

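No paired analysis was possible because each genotype had 1 library, and for the same reason no replicate could be left out. For non-cycling T cells the members' median log2 ratio was -0.056 on a total without ribosomal protein and mitochondrial genes, -0.054 when centred on all genes, 0.057 as a mean of per-cell CPM, 0.11 at a floor of 20 CPM, 0.053 with no floor, 0.053 when thinned to 2000 UMIs and -0.014 without Trdc cells. Members past the fold there numbered 2 at a floor of 1 CPM, 4 with no floor, 1 when thinned and 1 at the lower fold tried. Counts of members past the fold in this section stand without the share of all genes under the same setting. That share may differ by setting, so these counts are not results about the members. For B cells the median was 0.046 at a floor of 20 CPM and 0.045 when thinned, and 1 member was past with no floor. For cycling T cells the median was 0.53 per cell, 0.37 at a floor of 20 CPM, 0.67 when thinned, 0.37 without Trdc cells, 0.42 in S phase-rich cells and 0.13 in the other cycling cells. Members past the fold there numbered 20 per cell, 7 at a floor of 20 CPM, 4 when thinned, 20 at the lower fold, 2 at 2-fold, 17 in S phase-rich cells and 7 in the other cycling cells. The median of cycling over other WT T cells was 0.29 on the reduced total, 0.32 centred, 0.14 per cell, 0.86 at a floor of 1 CPM and with no floor, 0.25 and 0.75 with the cycling gate at 1 and 3 UMIs, 0.93 thinned, 0.53 in S phase-rich cells and 0.58 in the others. With the cycling gate at 1 UMI the cycling share of T cells was 2.05 points lower in CKO (-2.05). The ratio of Fanci in cycling T cells changed sign when thinned (-1.18) and in the cells not rich in S phase (-0.35), and that of Brca1 in those cells (-0.61). Of 498 values for named genes under an alternative, 478 stayed within their counting interval, some of them crossing 0 inside it, 17 left it, and 3 were values past the fold that changed sign; the causes were not tested. The restriction to S phase-rich or other cycling cells and to cells without Trdc was chosen after seeing the data. Depth limited the cycling classes and the regulatory and Trdc subsets most.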
